A study of Arabidopsis thaliana with 3 samples.

Results

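HDA6 and 9 related genes of Arabidopsis thaliana encode histone deacetylases of the RPD3 type. The data show where immunoprecipitation of tagged JMJ28, a JmjC-domain protein of the H3K9 demethylase family, gave signal at these 10 genes. They are set among 27444 nuclear protein-coding genes. The members are HDA6, HDA2, HDA5, HDA7, HDA8, HDA9, HDA14, HDA15, HDA18 and HDA19. HDA6 (AT5G63110) was picked from the measured scores, because it holds the highest 2 of the genome. Its scores are therefore a description and carry no test. The other 9 genes were taken as its family by name, by symbol or synonym in a TAIR10.1 gene table (7 by symbol and 3 by synonym in all).

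The measurement was chromatin immunoprecipitation with sequencing (ChIP-seq) of Col-0 seedlings that express JMJ28 with a FLAG epitope tag from the JMJ28 promoter (genotype JMJ28pro::JMJ28:3xFLAG). Seedlings were harvested at an age of 14 days after growth in long days at 22 °C, and the same genotype gave 2 ChIP libraries, described as biological replicates, and 1 input library. How many transgenic lines were used, and whether the plants also kept an untagged JMJ28 gene, is not given in the sources used here. No library from untagged plants was used here, so recovery that does not depend on tagged JMJ28 and true JMJ28 sites cannot be told apart.

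The values come from 1 list of peak summits, each the single base where the authors' peak caller placed the top of a peak, with a score. The score has the form of a −log10 p-value or q-value. It measures how strongly reads exceeded the caller's background and is not an occupancy level. The list holds 18368 summits on the 5 nuclear chromosomes, with a median score of 9.07 and quartiles of 5.10 and 18.4. There is no value for each library, so no spread between replicates stands behind any value below, the sequencing depth is unknown, and no difference was tested. Throughout, a summit belongs to a gene if it lies inside the gene or no more than 1000 bp beyond one of its ends. Positions are counted from 1 on TAIR10.

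RPD3-type deacetylases remove acetyl groups from lysines of histone tails, and deacetylated chromatin is usually less transcribed. Plants have a class I around HDA6 and HDA19, a class II around HDA5, HDA15 and HDA18, and the more distant HDA2. They act in complexes with corepressors, histone-binding WD40 proteins and demethylases, in gene silencing, flowering time, light responses and defence.

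HDA6 is the family member known for silencing of transposons and rRNA genes, for maintenance of DNA methylation with MET1 and for flowering, where it works with FLD and FVE. It held 3 summits, all inside the gene. The summit at position 25317950 of chromosome 5 scored 5357, the one at 25317034 scored 4897, and the one at 25316046 scored 34.9. The higher 2 scores were thus nearly equal, with a ratio of 1.09, whereas the lower of them was 140 times the third. They were 591 and 540 times the nuclear median, and the third was 3.85 times that median.

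The 2 strong summits of HDA6 stood apart from every other nuclear summit. The next score, 1443, belonged to the JMJ28 gene itself (AT4G21430), and the highest HDA6 score was 3.71 times as large. The plants carry a JMJ28 transgene. Whether the libraries held extra copies of HDA6 or JMJ28 sequence, which would change what these scores mean, was not tested. Against the summit of the flowering repressor gene FLC (762), the HDA6 score was 7.03 times as large. It was also 3.07 times the highest score on the chloroplast genome (1743). The third summit of HDA6 was far lower, although 89.6% of nuclear summits scored no higher. It ranked 1906 of the nuclear summits, and 71 nuclear summits had that same score, among them the one inside HDA19.

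**Figure D1:**
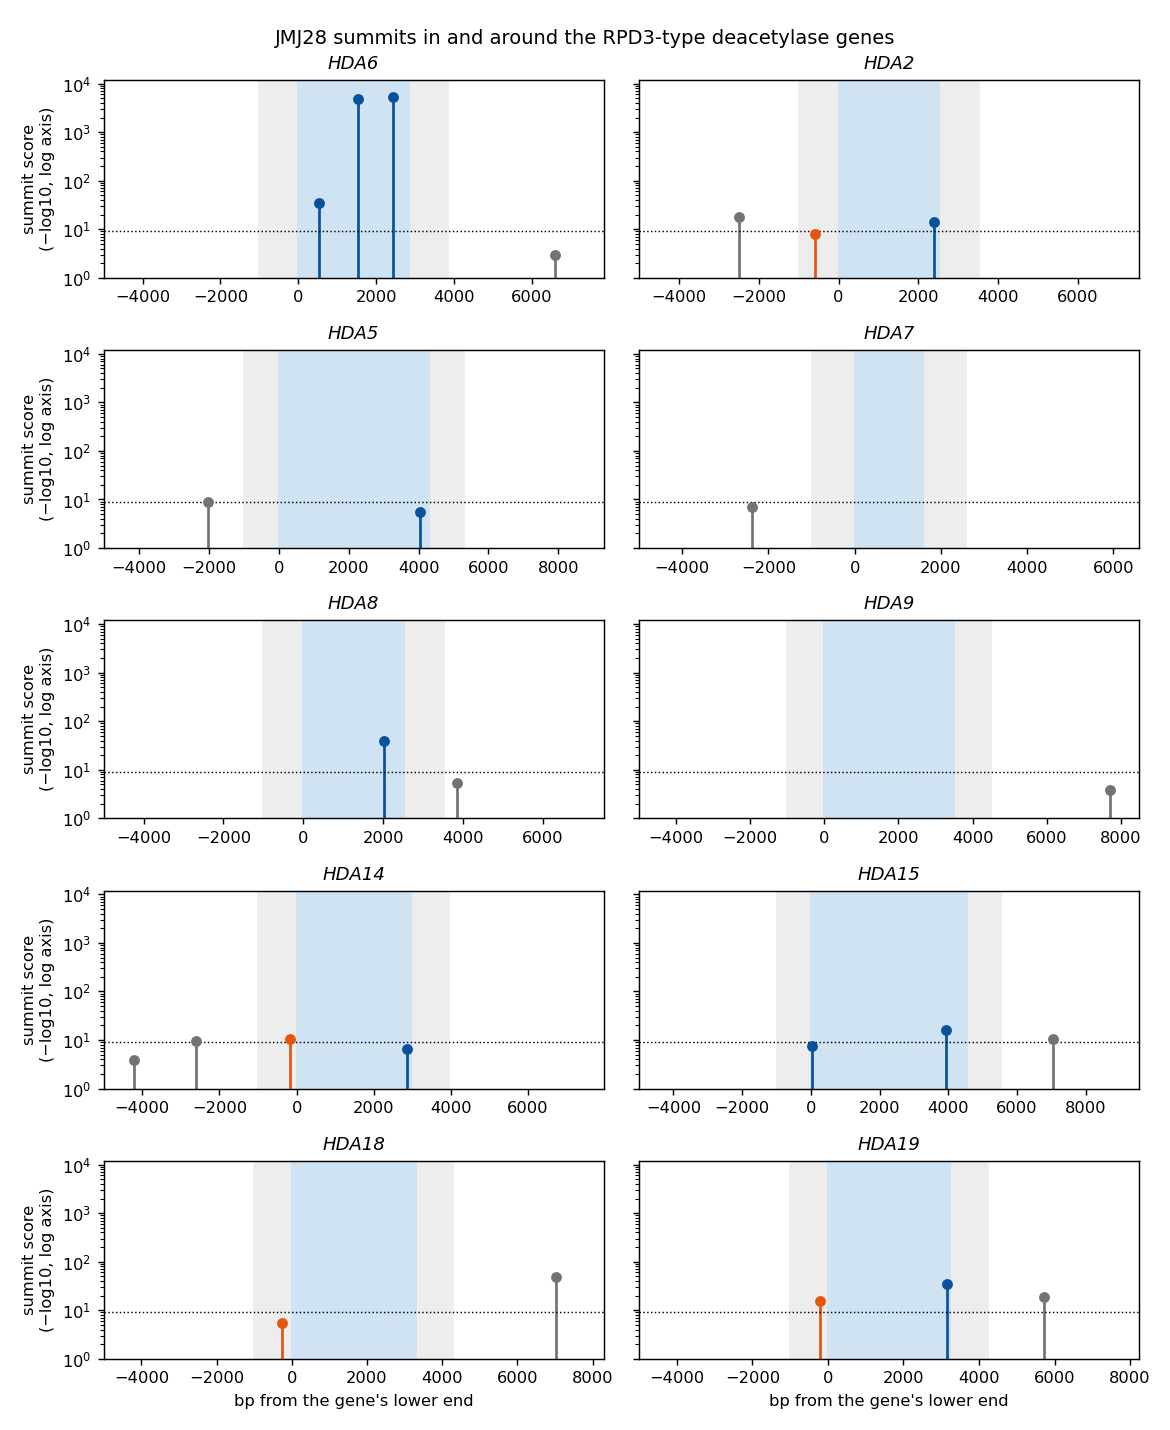
Summit scores (log axis) in and around each of the 10 genes, against the distance in bp from the gene end with the lower position. Blue shading is the gene and grey shading its flanks of 1000 bp. Blue points lie inside the gene, orange points in a flank and grey points farther out, up to 5000 bp from the gene, and the dotted line is the nuclear median of 9.07. HDA6 has points at 4897 and 5357, no other member has one above 39.0 in the gene and its flanks, and HDA7 and HDA9 have no point there.

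The summits of HDA6 were spread along the gene. HDA6 is 2842 bp long, and its summits lay at 19.0%, 53.8% and 86.0% of that length, counted from the end with the lower position. The summit at 25317034 lay 1313 bp from the nearer gene end. Of summits inside protein-coding genes, 4.20% were at least as far from the nearer end, where the median was 295 bp (quartiles 166 and 506 bp). These summits come from genes of all lengths. A gene of the median length, 2078 bp, is too short to hold a summit that far from both ends. The highest summit, at 397 bp from an end, and the third, at 540 bp, were nearer to the usual distance. The strong pair was 916 bp apart and the third summit a further 988 bp away. For 3117 protein-coding genes with 2 or more summits inside, the highest pair of each gene was a median of 1991 bp apart (quartiles 1333 and 2952 bp). These genes too are of all lengths, and a pair inside a gene cannot lie farther apart than the gene is long. Strand and exons were not analysed here, so it is not stated which end of HDA6 is the transcription start.

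No strong summit lay inside the genes next to HDA6. AT5G63100 overlaps HDA6 by 28 bp and had no summit of its own inside. It was counted only through the third HDA6 summit, 513 bp away. On the other side AT5G63120 begins 294 bp beyond HDA6, and its only summit inside scored 3.00. It too was counted with an HDA6 summit, the one of 5357 at 692 bp. The next summit outside HDA6 was 3758 bp away towards higher positions and 13214 bp away towards lower positions, where the score at position 25302292 was 42.6. Within 50 kb outside HDA6 there were 27 summits with scores of 2.63 to 335 and a median of 11.2. The one of 335 lay inside AT5G62990, 38.0 kb from HDA6, and the highest HDA6 score was 16.0 times as large.

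**Figure D2:**
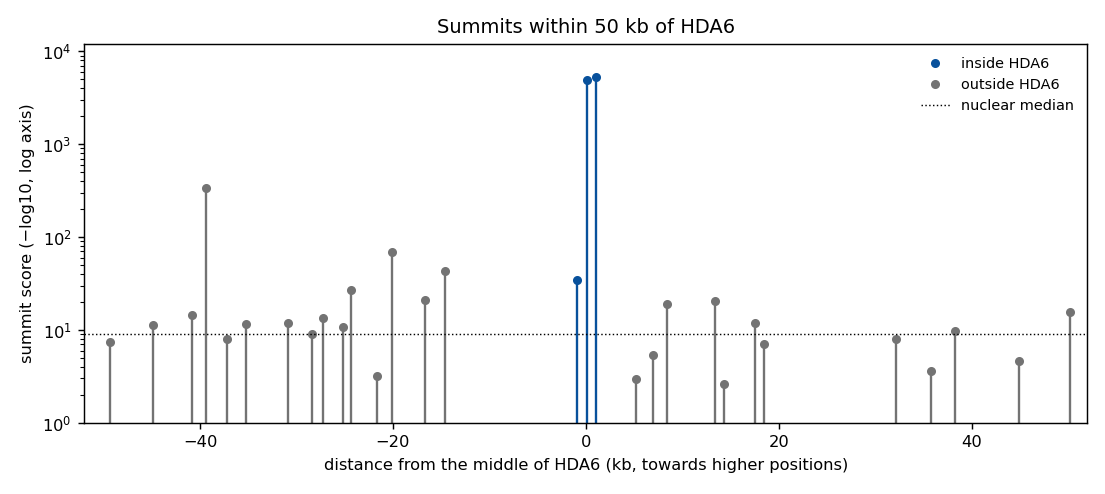
Scores (log axis) of all summits inside HDA6 (blue) and within 50 kb outside it (grey), against the distance in kb from the middle of the gene. The dotted line is the nuclear median. The blue pair at 4897 and 5357 rises above 27 neighbouring summits, of which the highest scores 335.

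HDA6 was picked for holding the 2 highest scores, so its first place among genes with a pair of strong summits was fixed in advance. The likeness of other genes to HDA6 was measured in this 1 list by the second highest score inside the gene, over the 3117 genes with 2 or more summits inside. HDA6 was first with 4897. The next was AT3G06160 with 84.4, beside a highest score of 167, so the second score of HDA6 was 58.0 times as large. It was followed by AT3G60961 (second score 70.7, highest 102), CES101 (second score 60.8, highest 411), AT1G80400 (second score 53.2, highest 72.0) and AT4G22290 (second score 49.8, highest 70.1). The median second score was 5.34. A near-equal pair was not rare in itself, since 6.19% of these genes had a ratio of highest to second score no larger than the 1.09 of HDA6, and the median ratio was 2.29.

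**Figure D3:**
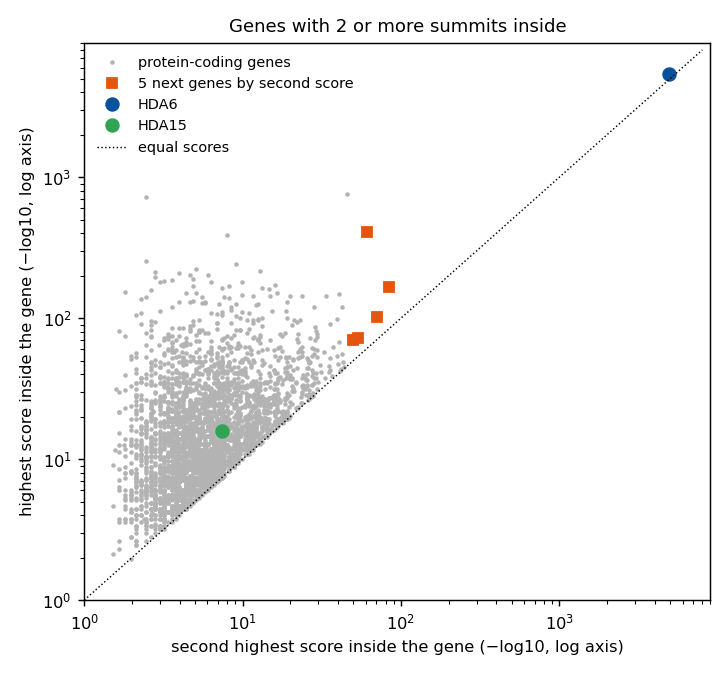
Highest against second highest summit score inside each of the 3117 protein-coding genes with 2 or more summits inside (grey points, both axes log). HDA6 (blue) sits near the line of equal scores and far above the other genes, the orange squares are the 5 genes next to it by second score, and HDA15 (green) lies in the main cloud.

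With HDA6, 8 of the 10 RPD3-type genes had a summit (80.0%), and without it 7 of 9 (77.8%). Of all protein-coding genes 65.4% had one. The members are mostly long, from 1592 bp for HDA7 to 4547 bp for HDA15, against a median of 2078 bp for all genes, and longer genes have a summit more often. In the length decile of genes that holds HDA6, 77.9% had a summit, which is close to the members' share. With a summit inside the gene there were 7 of 10 members, against 47.7% of all genes and 62.7% of the length decile of HDA6. HDA6 and HDA15 had 2 or more summits inside, against 11.4% of all genes, and 3 or more at HDA6 alone, against 1.09% of all genes and 1.46% of those in its length decile.

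Apart from HDA6, scores in the family were of the usual size. The highest score of a member was the upper of its summits inside or within 1000 bp. For the 7 other members with a summit it ran from 5.58 to 39.0 with a median of 14.3, and the median over all genes with a summit was 13.6. HDA6, HDA8 and HDA19 reached the upper quartile of nuclear scores, as did 25.4% of all genes. The highest score of HDA6 was 138 times that of the next member, HDA8.

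**Figure D4:**
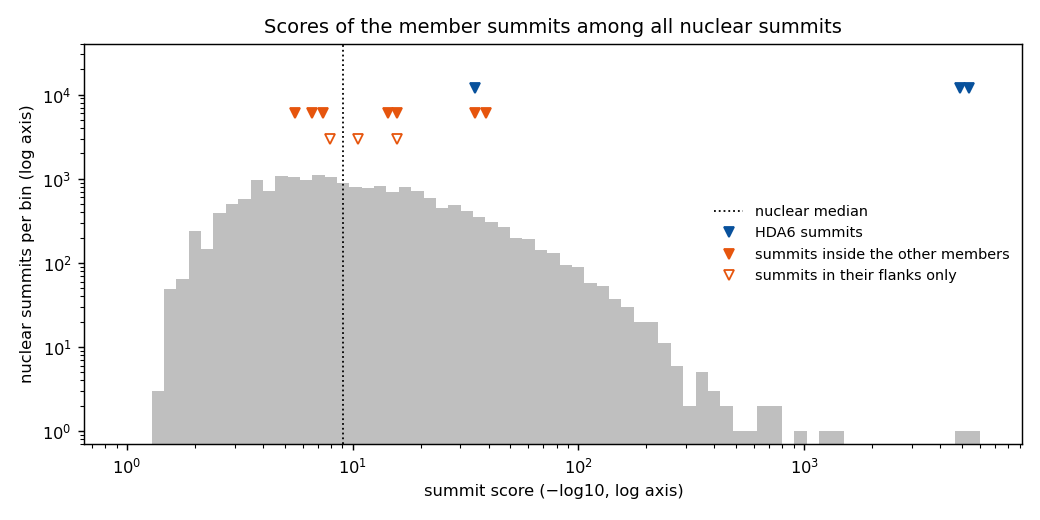
Numbers of nuclear summits by score (both axes log), with the scores of the members' summits marked as triangles above: HDA6 in blue, summits inside the other members in filled orange, and summits only in their flanks in open orange. The dotted line is the nuclear median of 9.07. The marks of the other members lie within the main body of the distribution, and 2 of the 3 marks of HDA6 lie beyond its upper end.

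HDA19 is the closest well-studied relative of HDA6 in class I and acts with TOPLESS-type corepressors in development, hormone responses and defence. It had a summit of 34.9 inside the gene at position 17899443 of chromosome 4, 66 bp from the gene end with the higher position. A second summit of 15.7 at 17896063 lay 215 bp outside the other end, inside the neighbouring gene AT4G38120. Both ends of HDA19 thus had a summit near them, and the higher of them equalled the third summit of HDA6 in score, far below the strong pair there. The strongest summit within 10 kb of HDA19 was 140, 5146 bp away and inside FRS9.

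HDA9 and HDA7 complete class I among the members. HDA9, which works with POWERDRESS and HOS15 in flowering and leaf ageing, had no summit, and the nearest, with a score of 3.78, was 4209 bp away. HDA7, needed in the female gametophyte, had none either, and the nearest, 7.11, was 2380 bp away inside PAA1. Both lie among genes with few summits. Of the other protein-coding genes with a midpoint within 50 kb, 3 of 9 had a summit at HDA7 and 7 of 17 at HDA9, against 28 of 36 at HDA6 and 31 of 38 at HDA19. The median score of summits in these surroundings was 3.99 at HDA7 and 4.42 at HDA9, against 11.2 at HDA6 and 18.8 at HDA19. HDA2 had 2 summits although only 4 of the 24 genes around it had one, with a median score of 5.10 there. Whether the surroundings bear on the lack of a summit was not tested. HDA9 also shares sequence with the shorter HDA10 and HDA17, and how reads with several matches were treated is not given in the sources used here, so the lack of a summit at HDA9 and HDA10 is uncertain.

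In class II, HDA15 was the only member with 2 summits inside the gene. HDA15 is recruited by PIF3 to repress chlorophyll synthesis genes in the dark. Its summit at position 6365092 of chromosome 3 scored 15.7 and lay 613 bp from the nearer end. Another of 7.36 at 6361198 lay only 39 bp inside the opposite end. The ratio of these scores, 2.14, was close to the median of genes with 2 or more summits inside.

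HDA5 and HDA18 lie 22 bp apart on chromosome 5 and shared their only summit. HDA5 takes part in flowering control together with HDA6, and HDA18 in the patterning of root epidermis cells. The summit at position 24570829 scored 5.58. It lay inside HDA5, 243 bp from the end that faces HDA18, and 266 bp outside HDA18. HDA18 therefore had no summit of its own. The pair are known as similar in sequence, and whether this affected where reads were placed was not tested. The score was the lowest among the members' highest scores, although 23 of the 27 other genes within 50 kb of either gene had a summit.

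HDA14, HDA8 and HDA2 are the less studied members. HDA14, a deacetylase found in chloroplasts, had a summit of 6.58 inside the gene at position 16105451 of chromosome 4, 99 bp from an end. A higher one of 10.6 at 16102421 lay 174 bp outside the other end and inside no protein-coding gene. The score counted for HDA14 thus came from its flank, where SCRL22 and AT4G33467 are also within 1000 bp. HDA8 had a single summit of 39.0, inside the gene at position 2674212 of chromosome 1 and 509 bp from an end, the highest score of the family after HDA6. HDA2 had a summit of 14.3 inside at position 9101539 of chromosome 5, 143 bp from an end, and one of 7.92 at 9098561, which lay 591 bp outside and inside FC1, a ferrochelatase gene of haem synthesis. Its surroundings were sparse, with a summit at 4 of the 24 other genes within 50 kb.

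In position, the summit of HDA6 at 25317034 lay deeper inside its gene than any summit of the other members, and the one at 25317950 lay within their range. The 7 summits inside HDA2, HDA5, HDA8, HDA14, HDA15 and HDA19 lay 39 to 613 bp from the nearer end, with a median of 143 bp, and the HDA6 pair lay at 1313 and 397 bp. Their scores were 5.58 to 39.0. The member summit farthest out that still counted was the one 591 bp from HDA2, and the nearest that did not count was 1319 bp from HDA8, with a score of 5.34.

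Other deacetylase genes, outside the members, were compared as a list. Of HDA10, HDA17, the 4 plant-specific HDT genes and the 2 sirtuin genes, 7 of 8 had a summit (87.5%, against 65.4% of all genes). With length deciles counted from the shortest genes, HDA10 and HDA17 lie in decile 2, in which 44.2% of all genes had a summit. The HDT and sirtuin genes lie in deciles 6 to 9, in which 72.8% to 79.3% had one. The highest score of the list was 49.2, inside HDT3 (also HD2C), which also had one of 33.4 at 77 bp outside. The sirtuin gene SRT2 had one of 24.6 in its flank only, HDT2 had 19.2 inside, and SRT1 had 18.8 and 4.20 inside. HDT4 had 2.12 inside and reached 10.9 only through a summit 999 bp away. HDT1 had a single summit of 5.10. Of the class I relatives, HDA17 had 6.32 inside and 7.64 in its flank, and HDA10 had none, with the nearest summit 14152 bp away. The median highest score was 18.8, against 13.6 over all genes with a summit.

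Genes for partners of the deacetylases had a summit in 21 of 22 cases (95.5%, against 65.4% of all genes), with a median highest score of 28.7, against 13.6 over all genes with a summit. Of the 22 genes, 11 belong to the longest decile of all genes, in which 83.0% had a summit. Their scores were not compared with those of genes of like length. The highest scores inside genes were at the corepressor gene TPL (146), the phytochrome-interacting factor gene PIF3 (92.6), the jasmonate repressor gene JAZ1 (68.9), the DNA methyltransferase gene MET1 (67.0) and the corepressor gene TPR1 (56.7). In a flank only, PWR (POWERDRESS) reached 75.2 and SNL5 64.5, both above TPR1. MSI1, a histone-binding WD40 protein gene, had no summit within 1000 bp, but one of 179 lay just beyond, at 1046 bp and inside FHIT. Among the LSD1-type demethylase genes the highest score was 36.4 at FLD, 23.3 at LDL2 and, in the flanks only, 6.07 at LDL1. Among the other WD40 genes it was 32.4 at FVE and 19.2 at MSI5. None came near the HDA6 pair.

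Histone acetyltransferase genes, whose products carry out the opposite reaction, had a summit in 10 of 12 cases (83.3%, against 65.4% of all genes), with a median highest score of 15.2, against 13.6 over all genes with a summit. Of the 12 genes, 9 belong to the longest decile, in which 83.0% of all genes had a summit, close to the share of the list. The highest scores inside genes were at HAC1 (50.9), HAC5 (30.1), HAF2 (17.2), HAG2 (16.4) and HAM1 (12.2). In a flank, HAG3 reached 16.9 and HAC12 13.6, both above HAM1. HAC4 and HAM2 had no summit. The nearest to HAC4 was 1074 bp away with a score of 3.99, and the nearest to HAM2 was 3788 bp away with a score of 7.36. These lists were chosen with earlier results of the same data known, and their shares are descriptions beside that of all genes. The same holds for their median scores, which take no account of gene length.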

How the data were processed

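ChIP-seq was made from 2 ChIP libraries and 1 input library. Reads were handled with Bowtie2 and MACS2 on TAIR10, per the submitters' processing notes. The sources used here do not give versions, the peak threshold, pooling or how the input entered. The deposited list holds 18410 intervals of 1 bp, 42 of them outside the 5 nuclear chromosomes, each with a score that the authors deposited and that has the layout of a MACS2 −log10 p-value or q-value. Such a score grows with sequencing depth, which is unknown here, so no interval is given.

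Genes came from an NCBI table of TAIR10.1 without strand or exons. Summits within 300 bp of a gene end made up 52.7% to 53.5% per chromosome as deposited and at most 28.1% after shifts of up to 5000 bp, a check that both share coordinates. The members and the 4 gene lists (52 genes) were chosen with earlier results of these data known. All members and other deacetylases were named, as were the 5 genes with the highest score inside and all genes without a summit in each of the last 2 lists, the neighbours of HDA6, and the 5 genes most like it, with FLC and JMJ28 for scale. FLD, LDL1, LDL2, FVE, MSI5, PWR, SNL5, HAG3 and HAC12 were named after their values were seen, as was the highest summit near HDA6. List genes without a matching symbol were found by locus identifier (2 genes). No test was made, because 1 list has no replicate error. The 6 alternatives changed the distance, the assignment to genes or the score threshold. Overlap counting was checked on simulated data. Python 3.11.15, numpy 2.4.6, pandas 2.3.3 and matplotlib 3.10.9 were used. DNA and protein sequences were not analysed here.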

Additional observations from a re-analysis of the deposited data

Results flagged for a closer look

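The chloroplast genome held 42 summits, a signal outside the nuclear genes compared here. No RPD3-type gene lies there, and these summits entered no count.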

How the results depend on the processing

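HDA6 had its 3 summits and its highest score under all 6 alternatives (summits inside the gene only, flanks of 500 or 2000 bp, nearest gene only, and scores at or above the nuclear median or upper quartile). None of these settings could change either result at HDA6. All 3 summits lie inside HDA6 alone and score 34.9 or more, above the upper quartile of 18.4. The next summit lies 3758 bp outside the gene. The count of RPD3-type genes with a summit was 6 to 8 of 10 under 5 of the alternatives. Under those 5, 43.8% to 73.3% of all protein-coding genes had one. At or above the upper quartile of scores the count of RPD3-type genes was 3, namely HDA6, HDA8 and HDA19. At that threshold 4 of 8 other deacetylase genes, 13 of 22 partner genes and 2 of 12 acetyltransferase genes had one, against 25.4% of all genes. A higher score threshold can only lower each of these counts and the share of all genes. The median of the members' highest scores was 15.0 and became 15.7 with summits inside only and with the nearest gene only, 25.3 at or above the median score and 39.0 at or above the upper quartile, where only higher summits are counted. Of 39 highest scores of single members that kept a summit under an alternative, 38 did not change. The exception was HDA14 with summits inside only (6.58). Cases in which a member lost all its summits were left out of the 39. HDA18 kept a summit under 2 of the 6 alternatives, HDA5 under 4, and HDA2, HDA14 and HDA15 under 5 each. A score threshold cannot change a highest score that stays, and wider flanks cannot lower it. HDA18 had no summit inside it. No paired analysis was possible because the list has no value per library, and leaving out a replicate was not possible for the same reason. Unknown depth limits what the lack of a summit at HDA7 and HDA9 can show.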
